A study of Mus musculus with 5 samples.

Results

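Natural killer (NK) cells and cytotoxic T cells share a set of genes for killing, and 10 of them were followed here in sorted blood stem cells: Gzma, Gzmb, Prf1, Nkg7, Klrd1, Klrb1c, Ccl5, Il2rb, Ncr1 and Eomes. Each gene was measured by every probe set that the array's annotation assigns to it alone. Of the 10 genes, 9 had such a probe set, 12 probe sets in all, among 18193 genes and 34945 probe sets with 1 symbol. The only Klrb1c probe set is shared with Klrb1b, so Klrb1c, which encodes the NK1.1 antigen, has no expression value here and enters only the count of upstream sequences. The RNA came from 3 Lrf knockout samples (Zbtb7a Flox/Flox Mx1-Cre+) and 2 control samples (Zbtb7a Flox/+ Mx1-Cre+), all on the C57BL/6 background and aged 4 weeks. LRF is the transcription factor encoded by Zbtb7a. In both groups 2 injections of 250 µg of the double-stranded RNA analogue pIpC induced Cre, and long-term haematopoietic stem cells (LT-HSCs) were sorted 9 days after the first. The gate was lineage-negative Sca-1+ Kit+ cells without IL7Ra, Flt3 and CD48 and with CD150. The Mx1 promoter responds to interferon in many cell types, so Cre is not limited to stem cells, and the controls carried 1 floxed allele and Cre as well. The label of knockout replicate 3 names 2 animals, and the p-values measure the spread between these samples only.

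NK cells kill by releasing granules in which granzymes, which are serine proteases, travel with perforin, which opens a path into the target cell. Inhibitory and activating surface receptors decide whether they do so, interleukin 15 acting through the Il2rb chain keeps them alive, and the T-box factors Eomes and T-bet set up the programme. In bone marrow the lineage arises from lymphoid progenitors, and the full programme belongs to mature cells.

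The values are log2 intensities made by RMA, 1 per probe set and array. A difference of 1 is a doubling, and levels of different probe sets are not comparable. Probe sets with a mean over all arrays below 5.77, the level under which the dimmest 40% lie, were left out of the test. The targeted gene did not separate the groups: its 3 probe sets read 6.76 to 9.06 in the knockouts, against 6.92 to 8.62 in the controls, with differences of -0.054, -0.36 and 0.41 (limma adjusted p = 1 each) for Zbtb7a. Whether these probe sets lie in the deleted part of the gene was not analysed here, so they do not check the labels, and knockout means a library labelled so throughout. Knockout replicate 2 stood apart from the other arrays, with correlations of 0.945 to 0.970 over 45037 probe sets against 0.977 to 0.990 between all other arrays. The 10 measured LT-HSC genes, among them Kit, Slamf1 and Procr, averaged 9.38, 7.24 and 9.72 over knockout replicates 1 to 3, against 9.06 and 9.996 over controls 1 and 2. Immediate early genes, which cells switch on within minutes of a stimulus, had a list median 3.10 above the control mean in knockout replicate 2. The 3' minus 5' difference of Actb was 3.85 in that array and 4.90 to 5.21 in the others. Interferon response genes had a list median 2.63 above the control mean in knockout replicate 1. The part of these features in the results below was not tested.

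The granule genes held both a gene with separated groups and the smallest difference among the genes tested, Gzma and Prf1. Gzma lies at chr13:113093824-113100981 in GRCm38.p6. Gzma (probe set 1417898_a_at), the gene of the tryptase granzyme A, read 9.09, 9.18 and 6.96 in the knockouts, numbered 1 to 3 throughout, against 6.47 and 6.78 in controls 1 and 2. Knockout replicates 1 and 2 were nearly equal and far above the rest, and replicate 3 lay just above the higher control, by 0.18. The mean was 8.41 ± 1.25 (SD, n = 3) in knockouts and 6.63 ± 0.22 (SD, n = 2) in controls, a 3.45-fold difference (log2 1.79, SE 0.76, 95% interval -0.22 to 3.79). It did not pass the limma fit across all probe sets (adjusted p = 1), and the exact two-sided permutation test gave p = 0.2, where 10 splits allow no p below 0.1. Without knockout replicate 2 the difference was 1.40. Among the 9 genes, Gzma was the one for which knockout replicates 1 and 2 were both more than 2 log2 units above the control mean.

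Gzmb (1419060_at), the gene of granzyme B, which cleaves caspases, read 6.38, 6.87 and 5.34 in the knockouts, against 6.06 and 5.66 in the controls. Replicates 1 and 2 were again the higher ones, but replicate 3 was the lowest of all 5 arrays, so the groups overlapped. The log2 difference was 0.34 (SE 0.50, limma adjusted p = 1), and -0.002 without knockout replicate 2. The sequences upstream of both granzyme genes are shown because RUNX and T-box factors are known regulators of cytotoxic genes and both granzymes had knockout replicates 1 and 2 as their highest arrays. Capitals mark TGTGGT or its reverse complement ACCACA, the core bound by RUNX factors, and GGTGTG or CACACC, a T-box core, searched on both strands, and the matches do not overlap. Gene start sites and sequences are those of RefSeq on GRCm38.p6, with the 250 bases before the start read 5′ to 3′ on the gene's strand. The Gzma window is chr13:113100982-113101231 (minus strand) and the Gzmb window is chr14:56262335-56262584 (minus strand).
Gzma: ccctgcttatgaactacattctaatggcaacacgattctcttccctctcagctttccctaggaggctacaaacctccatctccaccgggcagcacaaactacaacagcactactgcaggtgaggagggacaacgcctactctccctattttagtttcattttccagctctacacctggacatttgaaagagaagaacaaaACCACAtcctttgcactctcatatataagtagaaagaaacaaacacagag
Gzmb: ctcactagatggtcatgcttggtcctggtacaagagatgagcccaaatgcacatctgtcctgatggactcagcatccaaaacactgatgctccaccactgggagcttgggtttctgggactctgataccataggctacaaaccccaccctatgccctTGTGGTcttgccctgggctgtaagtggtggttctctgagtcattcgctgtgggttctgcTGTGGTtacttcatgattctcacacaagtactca
The Gzma window holds 1 RUNX core and the Gzmb window holds 2, and neither holds the T-box core. Of the 10 genes, 7 had an upstream sequence, Klrb1c among them, and the RUNX core lay in 6, all but Eomes, against 14.0% of 32851 upstream windows of mouse genes. The T-box core lay in 1 of the 7, Nkg7, against 16.3% of all windows. The motifs were picked with these sequences already seen, so the counts describe letters and not binding.

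Prf1, the gene of perforin, had 2 probe sets. The brighter, 1450335_at, read 5.85, 5.91 and 6.59 in the knockouts, against 6.10 and 6.06 in the controls. Replicates 1 and 2, which were high for the granzymes, were the 2 lowest arrays here, and replicate 3 was the highest. The other, 1451862_a_at, read 5.90, 6.26 and 5.74 in the knockouts, against 5.82 and 5.49 in the controls, with replicates 2 and 1 the highest arrays, as for Gzma. The differences were 0.035 (SE 0.28) and 0.31 (SE 0.22), both with a limma adjusted p of 1, and 0.14 and 0.16 without knockout replicate 2. The 2 probe sets thus disagreed on the order of the arrays, and no order is given for Prf1 as a gene.

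Nkg7 (1450753_at), which encodes a membrane protein of cytotoxic granules, read 10.21, 10.65 and 9.99 in the knockouts, against 9.28 and 10.26 in the controls. It was well above the filter level in every array, controls included. The controls lay 0.98 apart, more than the 0.67 between the knockouts, and the difference of 0.52 (SE 0.38, limma adjusted p = 1) was smaller than the gap between the controls. It was 0.33 without knockout replicate 2, and with single arrays left out it ran from 0.028 without control 1 to 1.003 without control 2. The Nkg7 window, chr7:43436888-43437137 (plus strand), is shown as the one member window that holds both cores.
Nkg7: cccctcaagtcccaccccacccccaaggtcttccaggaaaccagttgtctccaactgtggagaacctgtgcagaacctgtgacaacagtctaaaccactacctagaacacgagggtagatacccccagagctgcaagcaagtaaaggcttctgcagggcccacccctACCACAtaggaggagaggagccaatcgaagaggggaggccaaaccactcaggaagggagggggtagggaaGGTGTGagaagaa

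**Figure D1:**
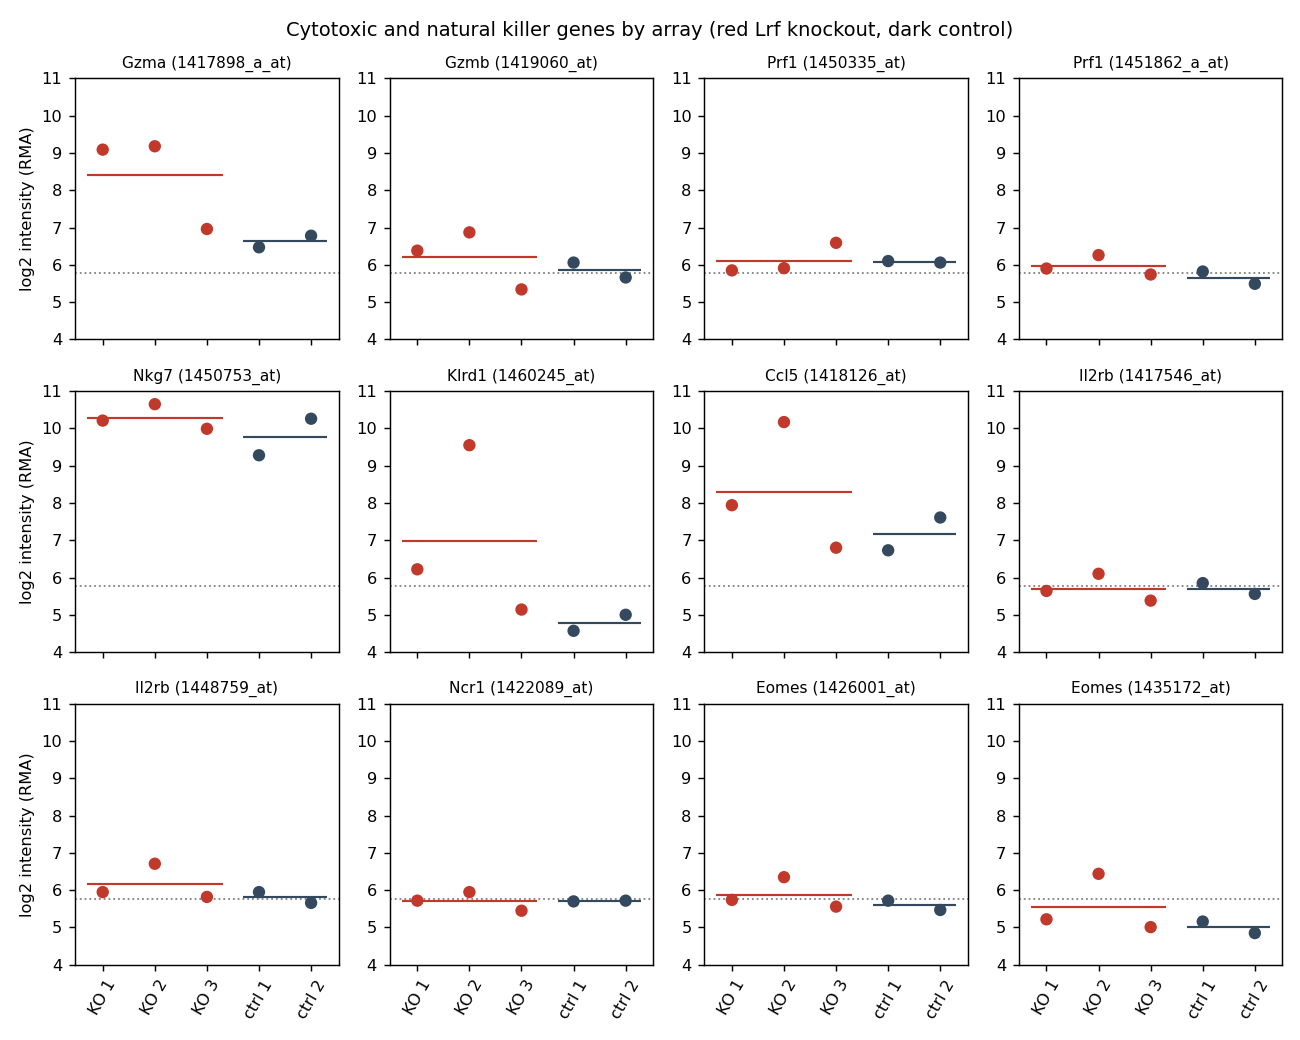
Log2 RMA intensity (vertical axis) of the 12 probe sets of 9 cytotoxic and NK genes in each array, with Lrf knockouts (KO, red) left of controls (ctrl, dark); horizontal lines are group means and the dotted line is the filter level of 5.77. Gzma is high in 2 knockout arrays (9.09 and 9.18), and Klrd1 and Ccl5 stand out in knockout replicate 2 (9.55 and 10.17).

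Among the receptor genes, Klrd1 had the largest difference of the members. It lies at chr6:129588092-129598775 in GRCm38.p6 and encodes CD94, the chain that pairs with NKG2 proteins to make inhibitory and activating NK receptors. Klrd1 (1460245_at) read 6.22, 9.55 and 5.14 in the knockouts, against 4.57 and 5.00 in the controls. Every knockout value lay above both controls, replicate 3 by only 0.14, and replicate 2 lay 3.34 above the next highest array. The mean was 6.97 ± 2.30 (SD, n = 3) in knockouts and 4.78 ± 0.30 (SD, n = 2) in controls, a log2 difference of 2.19 (SE 1.38, 95% interval -1.44 to 5.81, limma adjusted p = 1, exact two-sided permutation p = 0.2). Both controls and knockout replicate 3 read below the filter level, so Klrd1 passed the filter through knockout replicates 1 and 2, chiefly 2. Without replicate 2 the difference was 0.89, and the probe set then fell below the filter.

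Il2rb, the beta chain that receives interleukin 2 and interleukin 15 signals, read 5.95, 6.71 and 5.82 in the knockouts on 1448759_at, against 5.95 and 5.66 in the controls. Only replicate 2 left the range of the controls. The difference was 0.35 (SE 0.32, limma adjusted p = 1), and 0.080 without that array. The dimmer Il2rb probe set, 1417546_at, was left out by the filter and read 5.64, 6.10 and 5.38 in the knockouts, against 5.85 and 5.56 in the controls. Ncr1, the gene of the activating receptor NKp46 and among the most NK-restricted genes of the set, was also left out by the filter. It (1422089_at) read 5.72, 5.95 and 5.45 in the knockouts, against 5.70 and 5.72 in the controls. These levels span 0.50 in all, and only knockout replicate 2 read above the filter level.

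The chemokine gene Ccl5 (1418126_at), whose product draws T cells and monocytes, read 7.94, 10.17 and 6.80 in the knockouts, against 6.73 and 7.61 in the controls. Replicate 2 lay 2.22 above the next highest array, replicate 1 only a little above the controls, and replicate 3 within their range. The difference was 1.13 (SE 1.06, limma adjusted p = 1), and 0.20 without replicate 2. The transcription factor gene Eomes had 2 probe sets, both left out by the filter, the brighter one by a margin under 0.01. That one, 1426001_at, read 5.74, 6.35 and 5.56 in the knockouts, against 5.72 and 5.47 in the controls. The other, 1435172_at, read 5.22, 6.44 and 5.01 in the knockouts, against 5.16 and 4.85 in the controls. On both, replicate 2 was the highest array and the other 4 arrays lay close together.

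**Figure D2:**
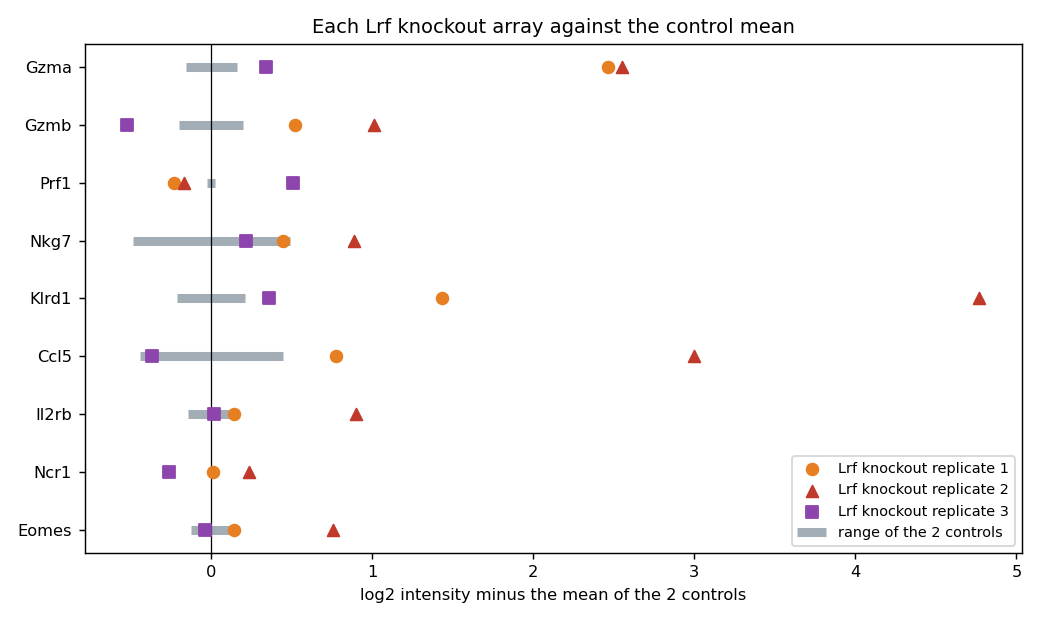
Log2 intensity of each Lrf knockout array minus the mean of the 2 controls (horizontal axis) for the brightest probe set of the 9 genes; grey bars span the 2 controls. Knockout replicate 2 is the rightmost point for 8 of 9 genes, and the widest lead is for Klrd1 and Ccl5.

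Over the set, 0 of the 8 member probe sets tested passed limma at an adjusted p under 0.05, where 0.0% of 27022 probe sets did. At an unadjusted p under 0.05 the count was 0 of 7 genes, against 0.96% of 12813 genes. All 7 genes tested had a positive difference, with a median of 0.52, while 43.7% of all genes tested were positive and their median was -0.031. Of the 8 probe sets tested, 2 had every knockout array above both controls, against 3.61% of probe sets, and 0 had every knockout array below both, against 4.34%. By gene, every knockout array lay above both controls for 2 of the 7, Gzma and Klrd1, against 2.68% of genes tested, and for 0 of 7 every knockout array lay below both, against 4.5%. Since Klrd1 entered the test only through its high arrays, these counts are not evidence for the set as a whole. Without knockout replicate 2 the median difference of the 7 genes was 0.20, with 6 positive, against a median of 0.0032 and 50.7% positive over all genes. These 7 were the genes that passed the filter with knockout replicate 2 included. With the filter set again without that array, Klrd1 fell below it, and 5 of the 6 genes left were positive.

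**Figure D3:**
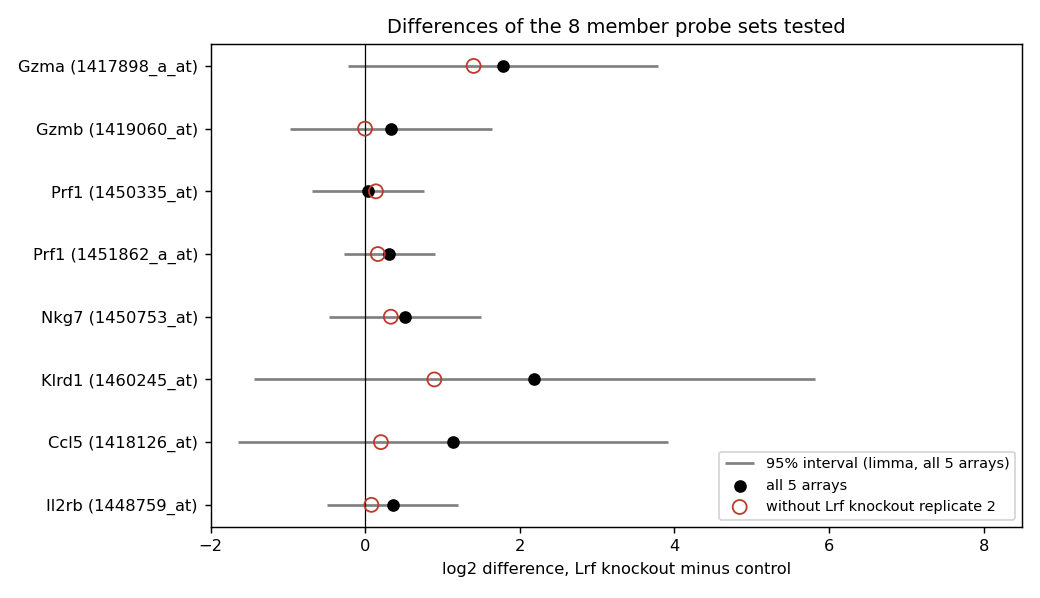
Log2 difference, Lrf knockout minus control (horizontal axis), of the 8 member probe sets tested, with the limma 95% interval from all 5 arrays (bars) and the difference without knockout replicate 2 (open circles). Every interval includes 0, and leaving out that array brings Klrd1 to 0.89 and Ccl5 to 0.20 while Gzma stays at 1.40.

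Knockout replicate 2 was the highest array for 6 of the 7 genes tested, against 26.0% of all genes tested. Klrd1, which passed the filter through its high arrays, is among these 6. With members below the filter included, that array was the highest for 8 of the 9 genes and for 11 of the 12 probe sets. Knockout replicate 2 lay above both controls for 6 of the 7 genes tested, against 29.6% of all genes. It lay below both for Prf1, read on its brighter probe set here and below, against 44.7%. Knockout replicate 1 lay above both controls for 4 of the 7, Gzma, Gzmb, Klrd1 and Ccl5, against 25.3% of all genes, and below both for Prf1, against 25.9%. Knockout replicate 3 lay above both for 3 of the 7, Gzma, Prf1 and Klrd1, against 27.0%, and below both for Gzmb, against 25.9%. On the other Prf1 probe set, knockout replicates 1 and 2 lay above both controls and replicate 3 lay between them. All 9 genes read at or above the filter level in knockout replicate 2, 7 in replicate 1 and 5 in replicate 3, against 6 and 4 in controls 1 and 2. No like count over all measured genes was made, here or for the lists below. In bulk RNA of a sorted population, more cells of another type and more RNA per cell cannot be told apart.

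Further NK receptor and adaptor genes were read to see whether the members stood alone. Of 28 listed, 22 were measured and 8 passed the filter, 0 of them past the limma test. Every knockout array lay above both controls for 0 of the 8, against 2.68% of all genes tested, and below both for 0, against 4.5%. Their median difference was 0.063 with all arrays and -0.31 without knockout replicate 2. Without it, both remaining knockout arrays lay below both controls for 3 of the 8, against 13.5% of all genes tested, and above both for 0, against 13.9%. That replicate was the highest array for 6 of the 8, against 26.0% of all genes tested, and for 15 of the 22 measured. In that array 14 of the 22 read at or above the filter level, against 8 in knockout replicate 1 and 7 in replicate 3, with 8 in control 1 and 7 in control 2. Slamf7, an activating receptor of NK and plasma cells, read 6.59, 7.85 and 6.07 in the knockouts, against 6.31 and 6.08 in the controls. Klrg1, an inhibitory receptor of mature NK and effector T cells, followed the granzymes more closely, with 6.54, 6.70 and 5.73 in the knockouts, against 6.13 and 5.74 in the controls. Their differences were 0.64 (SE 0.56) and 0.39 (SE 0.36), with a limma adjusted p of 1 each, and 0.14 and 0.20 without knockout replicate 2.

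Over the granule, receptor, transcription factor and cytokine lists, the 5 genes with the largest excess of knockout replicate 2 over the control mean were Ccl3, Cx3cr1, Ifng, Ikzf3 and Klrc1. This order was taken after the values were seen, so that replicate 2 is high in them is set by the choice. Of the genes tested, replicate 2 was the highest array for 6 of 13 granule, 6 of 8 receptor, 5 of 11 factor and 8 of 16 cytokine genes. The share over all genes tested was 26.0%. Other genes of these lists were lowest in replicate 2, among them Il18 and Rora, at -2.13 and -1.20 relative to the control mean. Ccl3, an inflammatory chemokine of NK and myeloid cells, read 4.84, 9.04 and 4.22 in the knockouts, against 4.57 and 4.99 in the controls. Cx3cr1, a chemokine receptor of mature NK cells and monocytes, read 5.48, 9.19 and 5.11 in the knockouts, against 5.48 and 5.29 in the controls. Ifng, which encodes interferon gamma, the main cytokine of activated NK cells, read 4.11, 7.40 and 4.11 in the knockouts, against 3.91 and 3.97 in the controls. Klrc1, which encodes NKG2A, the partner of CD94, read 3.78, 7.34 and 3.90 in the knockouts, against 4.44 and 4.10 in the controls. In these 4 genes the other arrays read below the filter level, while Ikzf3, described with the transcription factors, was also high in knockout replicate 1.

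The brightest receptor-associated genes are shared with myeloid cells and differed from Gzma in knockout replicate 1. Tyrobp, the signalling adaptor DAP12, read 9.71, 13.95 and 10.66 in the knockouts, against 12.44 and 11.01 in the controls. Fcgr3, the low-affinity antibody receptor CD16, read 6.88, 11.26 and 8.44 in the knockouts, against 9.34 and 8.30 in the controls. Knockout replicate 2 was the highest and replicate 1 the lowest array for both, whereas replicate 1 was among the high arrays for Gzma.

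Of the other granule and killing genes, 21 were measured and 13 passed the filter, with a median difference of 0.0049 and 0 past the limma test. Every knockout array lay above both controls for 1 of the 13, against 2.68% of all genes tested. Without knockout replicate 2 the median was -0.14, and 4 of the 13 had both knockout arrays below both controls, against 13.5% of all genes tested. The gene above both controls was Ctsl, a lysosomal protease, at 10.26, 10.26 and 10.41 in the knockouts, against 9.86 and 10.13 in the controls (difference 0.31, SE 0.16, limma adjusted p = 1). Srgn, the proteoglycan that packs granule contents in many blood cells, read 13.45 to 14.04 in the knockouts, against 13.03 and 13.74 in the controls. Stx11, needed for granule fusion, read 9.07, 11.52 and 9.51 in the knockouts, against 9.95 and 8.28 in the controls, and its groups overlapped. Gzmm, another granzyme, read 6.78 to 6.84 in the knockouts, against 6.84 and 7.14 in the controls.

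Of the transcription factors of the lineage, 14 were measured and 11 passed the filter, with 8 positive, a median difference of 0.21 and 0 past the limma test. The median was 0.037 without knockout replicate 2, with 6 of the 11 positive. Ikzf3, the lymphoid zinc finger factor Aiolos, had the smallest unadjusted p of them (limma, 0.122). It read 7.47, 8.58 and 5.60 in the knockouts, against 5.86 and 5.04 in the controls. As with Gzma, knockout replicates 1 and 2 were high and replicate 3 was not, here lying between the controls (difference 1.77, SE 0.94, limma adjusted p = 1; 1.09 without replicate 2). Id2, which innate lymphoid cells need and which stem cells express too, read 10.28, 11.69 and 9.98 in the knockouts, against 10.70 and 9.91 in the controls. Knockout replicate 2 was the highest array for 5 of the 11, against 26.0% of all genes tested, and the lowest for others. Rora read 7.79, 6.50 and 7.23 in the knockouts, against 7.46 and 7.94 in the controls (difference -0.53, SE 0.43). Ikzf2, the brightest of the list, read 11.43, 9.80 and 11.12 in the knockouts, against 10.16 and 11.41 in the controls.

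Cytokine and cytokine receptor genes of NK cells had 16 of 21 measured members above the filter, with a median difference of 0.025 and 0 past the limma test. The median was -0.047 without knockout replicate 2, with 6 of the 16 positive. Both remaining knockout arrays lay below both controls for 4 of the 16, against 13.5% of all genes tested. Il2ra, the alpha chain that joins Il2rb in the high-affinity interleukin 2 receptor, read 6.17, 6.62 and 5.56 in the knockouts, against 5.62 and 5.31 in the controls (difference 0.65, SE 0.35, limma adjusted p = 1; 0.40 without knockout replicate 2). Knockout replicates 1 and 2 were the higher arrays here too. Il18, an inducer of interferon gamma made by other cells, read 9.19, 7.68 and 9.42 in the knockouts, against 9.84 and 9.76 in the controls. It was the 1 gene of the 16 with every knockout array below both controls, against 4.5% of all genes tested. Its difference was -1.04 (SE 0.58, limma adjusted p = 1), and -0.50 without knockout replicate 2, which lay farthest below the controls.

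T cells share several members with NK cells, so their markers were read beside them. Of 16 T cell markers, 14 were measured and 8 passed the filter, 7 of these positive with a median difference of 0.25 and 0 past the limma test. The median was 0.16 without knockout replicate 2, with 5 of the 8 positive. The mean level over all 14 was 6.36, 6.77 and 6.01 in the knockouts, against 6.00 and 6.05 in the controls. Cd3e, a chain of the T cell receptor complex, read 7.33, 7.86 and 7.28 in the knockouts, against 7.33 and 7.08 in the controls. Cd4, the 1 negative marker of the 8, read 7.18, 7.18 and 6.90 in the knockouts, against 7.60 and 7.18 in the controls (difference -0.30, SE 0.20). Cd6, a T cell adhesion receptor, read 7.09, 6.90 and 6.89 in the knockouts, against 6.27 and 6.70 in the controls (difference 0.48, SE 0.19, limma adjusted p = 1). It was the 1 marker of the 8 with every knockout array above both controls, against 2.68% of all genes tested. In knockout replicate 2, 11 of the 14 markers read at or above the filter level, against 9 in knockout replicate 1, 7 in replicate 3 and 8 in each control. Cd48, whose protein the gate excluded, read 8.42, 9.97 and 8.49 in the knockouts, against 7.87 and 8.59 in the controls. Flt3, the third protein excluded, went the other way, at 8.92, 8.56 and 8.25 in the knockouts, against 8.41 and 9.50 in the controls (difference -0.38). Il7r, excluded as well, read 9.35, 10.50 and 7.44 in the knockouts, against 6.21 and 7.30 in the controls, which is the same order of arrays as for Gzma among the knockouts. The Il7r difference was 2.34 (SE 0.98), larger than that of any member, and 1.64 without knockout replicate 2. Every knockout array lay above both controls for Il7r, replicate 3 by 0.14. This held for 1 of the 3 excluded genes, against 2.68% of all genes tested, and 0 of the 3 passed the limma test. The part of other cell types in these values was not tested.

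**Figure D4:**
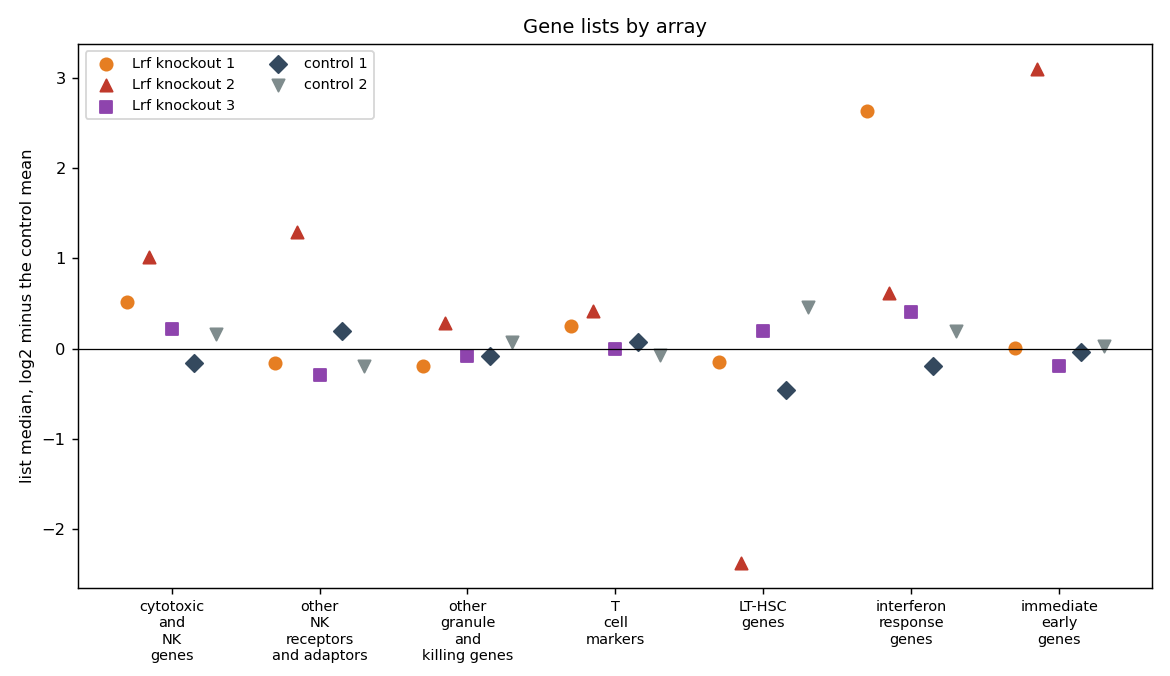
Median over the genes above the filter of log2 intensity minus the control mean (vertical axis) in each array, for 7 gene lists; Lrf knockout arrays stand left of the controls in each list. The NK members (1.01) and the other NK receptors and adaptors (1.29) peak in knockout replicate 2, where LT-HSC genes are at -2.37 and immediate early genes at 3.10, and interferon response genes peak in knockout replicate 1 (2.63).

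Set side by side, the lists moved with single arrays. The member median relative to the control mean was 0.52, 1.01 and 0.22 in the knockouts, against -0.16 and 0.16 in the controls. The median of the other NK receptors and adaptors was -0.16, 1.29 and -0.29 in the knockouts, against 0.19 and -0.19 in the controls. The LT-HSC median was -0.15, -2.37 and 0.20 in the knockouts, against -0.46 and 0.46 in the controls. The array with the highest member and receptor medians was also the lowest for LT-HSC genes. Interferon response genes had every knockout array above both controls for 8 of 15, against 2.68% of all genes tested, and replicate 1 was the highest array for 14 of the 15, against 13.5% of all genes. Replicate 1 also lay above the control mean for Gzma by 2.47, Ikzf3 by 2.02, Klrd1 by 1.43, Ccl5 by 0.77 and Klrg1 by 0.61. The part of the interferon response in the Gzma level was not tested.

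Genes outside the lists whose pattern over the 5 arrays was most like the mean profile of the 7 members tested were 6330407A03Rik, 4833407H14Rik, Pde7b, Tmem243 and Rag2. The measure was the root mean square difference between centred log2 values, which was 0.12 for the first and 0.16, 0.16, 0.19 and 0.21 for the others. Rag2, a subunit of the antigen receptor recombinase, read 6.21, 7.21 and 5.75 in the knockouts, against 5.80 and 5.63 in the controls. Pde7b, a cyclic AMP phosphodiesterase, read 7.17, 7.84 and 6.44 in the knockouts, against 6.28 and 6.35 in the controls. The likeness over 5 arrays is a description.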

How the data were processed

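RNA of sorted LT-HSCs was measured on 5 arrays, 3 Lrf knockout and 2 control. The deposited values are log2 intensities. The submitters' processing notes name RMA and Affymetrix Expression Console and give no version. RMA forces the arrays to one distribution and compresses dim values. Per the labels' protocols, cRNA was amplified by 2 rounds of in vitro transcription. The table held 45101 rows, of which 64 control probe sets were left out. Annotation gave 34945 probe sets 1 symbol, 932 several and left 9160 unnamed. The dimmest 40% by mean were left out, and 27022 were tested with limma 3.58.1 in R 4.3.3 (lmFit and eBayes without covariates; two-sided p-values adjusted by Benjamini-Hochberg over all probe sets tested, with a threshold of 0.05). A gene was represented by its brightest single-gene probe set. Exact permutation tests used all 10 splits. The number of arrays limits the precision.

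The 10 members, the lists and the named genes were chosen with earlier results of these data known. All members were named; from other lists up to 4 genes with the smallest p and 2 with the highest mean were eligible, and every gene of the 2 gate lists. Ccl3, Cx3cr1, Ifng and Klrc1 were named outside this rule, after their values were seen. Same-numbered arrays are not paired by the labels. Alternatives used a robust trended eBayes prior, changed the filter, weighted the arrays, renormalized by cyclic loess or by median, averaged probe sets per gene, added a replicate block or dropped single arrays. Figures were drawn with matplotlib 3.10.9.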

Additional observations from a re-analysis of the deposited data

How the results depend on the processing

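Under every alternative run, limma called 0 probe sets or genes at an adjusted p under 0.05, and the smallest adjusted p of a member over all settings was 0.856. Of 102 member differences recomputed, 98 kept their direction and 4 reversed. A changed prior or filter leaves an estimate as it is, and so does averaging for genes with a single probe set. Those recomputations could not reverse, and probe sets that fell below the filter under an alternative were not counted. The count is thus no measure of robustness. Prf1 (1450335_at) became -0.14 with array weights and -0.20 with the replicate block or without knockout replicate 3, and Gzmb became -0.002 without knockout replicate 2. With single arrays left out, Prf1 ranged from -0.201 to 0.168 Gzmb from -0.002 to 0.765, the other Prf1 probe set from 0.144 to 0.472, Nkg7 from 0.028 to 1.003, Ccl5 from 0.203 to 1.885, Il2rb from 0.080 to 0.522 and Gzma from 1.402 to 2.509. The number of probe sets with an unadjusted p under 0.05, 306 of 27022 in the reported fit, was 629 with no filter, 174 with the lowest 60% left out, 1160 with array weights and 184 with the replicate block, and 191 to 1057 with single arrays left out. With the replicate block the differences equal those without knockout replicate 3, whose number no control has. Deviations of same-numbered arrays correlated at -0.479 and -0.545. With 2 controls these deviations mirror each other, so the correlations cannot decide whether the numbers pair the arrays.

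The number of member genes whose knockout arrays all lay above both controls, 2 of 7, against 2.68% of all genes tested, was 1 of 3 with the lowest 60% left out, against 2.5%. With single arrays left out it was 1 to 5: 1 of 6 without knockout replicate 2, where Klrd1 fell below the filter (13.9% of all genes), 5 of 8 without knockout replicate 3 (6.94%), 4 of 8 without control 1 (16.2%) and 4 of 8 without control 2 (15.1%). In the settings with 8 genes, Eomes (1426001_at) had passed the filter, reading 6.35 in knockout replicate 2 and at most 5.74 in the other arrays. Eomes is among the genes counted without knockout replicate 3 and without control 1. Klrd1 is counted in each setting with 8 genes. Both passed the filter through their high arrays, so these counts are not evidence for the set. The number below both controls was 0 to 1 with single arrays left out, 1 of 8 without knockout replicate 3 (10.1%). Positive differences numbered 3 of 3 with the lowest 60% left out and 4 of 4 with probe sets averaged per gene, where fewer members passed the filter, and 5 to 8 with single arrays left out. Without knockout replicate 2, chosen after seeing the data, the median of other NK receptors and adaptors was -0.31, against 0.063 with all arrays. The signal near background limits Ncr1, Eomes and the dim arrays of Klrd1. It also limits the array orders given for Gzmb, Prf1 and Il2rb. Their tested probe sets averaged 5.84 to 6.10 over all arrays, just above the filter level. With the lowest 60% left out, only Gzma, Nkg7 and Ccl5 of the members were still tested.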
